A study of Mus musculus with 23 samples.

Results

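Chemokines of the small intestine were followed in 9 genes, Cxcl9, Cxcl10, Cxcl16, Cxcl13, Ccl20, Ccl25, Ccl28, Ccl6 and Cx3cl1. They were chosen by name, with earlier results of these data known. Through their NCBI Gene numbers they were found as 9 of the 19215 entries of the expression table. The RNA came from small intestine of male ICR mice, sequenced in 23 libraries of 8 groups. Every mouse had received the anticancer drug busulfan once (40 mg/kg), which injures the intestinal lining, so no group here was free of it. The Sa mice were then dosed with saline, and the others by gavage with a fecal microbiota transplant (FMT) of pooled luminal contents, from donors given vehicle (Con-FMT) or alginate oligosaccharides (AOS) at 10 mg/kg (A10-FMT) or 100 mg/kg (A100-FMT). The methods describe busulfan at 3 weeks of age, daily dosing for 1 week and collection at 5 weeks of age. The sample codes divide the libraries into set 1 and set 2, whose meaning the labels do not give, and the methods tie the schedule to neither. Each treatment had 3 libraries in each set, except Sa of set 1 with 2. The contents of each donor group were pooled, so the libraries of an FMT group share 1 donor pool. The labels number the libraries as separate samples without saying that each is another mouse, and p-values measure the spread between these libraries.

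Chemokines are small proteins that steer leukocytes through G protein-coupled receptors. In the small intestine, epithelial cells make several of them without injury, among them Ccl25, which draws lymphocytes bearing Ccr9, and Ccl28, which draws IgA-secreting cells bearing Ccr10, while Cxcl9 and Cxcl10 are made in response to interferon gamma and draw T cells bearing Cxcr3. Cxcl16 and Cx3cl1 are made as membrane proteins that can hold cells bearing Cxcr6 or Cx3cr1 or be shed by proteases, Ccl20 draws cells bearing Ccr6 to lymphoid follicles, Cxcl13 draws B cells bearing Cxcr5, and Ccl6 is a mouse chemokine that acts on Ccr1.

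Values are FPKM, fragments counted per kilobase of transcript and scaled to the mapped fragments of the library, a level per length that can be set side by side between genes. Summed over all entries they reached 556466 to 667957 per library. The table gives no read numbers to work with, the depth behind each value is unknown, and an entry can only be said to be listed at 0. Changes are differences of log2(FPKM + 1) between group means with their standard error (SE), which understate the change of low genes. A gene was called at an adjusted p under 0.05 from limma, with Benjamini-Hochberg adjustment over the 11337 entries with a mean of at least 1 FPKM. Of the 9 chemokines, 6 passed that filter, and Cxcl9, Cxcl13 and Ccl20 did not.

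A Sa library of set 1, replicate 3, stood apart before any chemokine was considered. Its title names another column of the table than its description, and the title's column was used. Relative to the median library, its values were higher in genes richer in GC (Spearman's rho 0.69 across 10527 genes, which are not independent replicates), while the other libraries gave -0.22 to 0.22 and the description's column -0.09. Its median correlation with the other libraries was 0.954, against 0.979 to 0.985 for the others. Called changes of the 6 tested chemokines in set 1 against Sa are therefore also given without that library and with the description's column. Leaving out a Sa library of set 1 leaves 1 in that group, so the spread then comes from the other groups. This limits calls lost in that fit as well as calls kept. The tissue was rich in epithelium, with all 10 epithelial markers tested and Krt8, a keratin, at a mean of 2530 FPKM. Of 8 smooth muscle genes, 6 were under 0.5 FPKM in every library, among them Acta2 and Myh11, while Mylk, a myosin kinase gene, had a mean of 66.9 FPKM and Tagln 1.24 FPKM. Mylk rose in set 1 after Con-FMT by 0.52 and after A100-FMT by 0.36 (SE 0.12 each, adjusted p = 0.0257 and 0.027 from limma), and was called under neither alternative for the Sa library. Of 12 B cell follicle genes, 10 were under 0.5 FPKM in every library. In such bulk tissue, fewer cells of a type and less RNA per cell cannot be told apart.

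The 9 chemokines spanned a wide range of levels. Ccl25 had a mean of 401 FPKM over the 23 libraries and ranked 241 among all entries, followed by Ccl6 at 125 FPKM, Cx3cl1 at 34.6 FPKM and Ccl28 at 22.8 FPKM. Cxcl16 stood at 1.89 FPKM, Cxcl10 at 1.52, Ccl20 at 0.817, Cxcl9 at 0.483 and Cxcl13 at 0.0604. The most abundant of them varied least between libraries, with coefficients of variation of 8.5% for Ccl25, 11.3% for Cx3cl1 and 14.5% for Ccl6. Cxcl13, the lowest, varied by 91.4%, Cxcl10 by 47.4% and Cxcl9 by 37.9%.

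Cxcl9 and Cxcl10, the interferon-induced ligands of Cxcr3, are neighbours on chromosome 5 (GRCm38, the build called mm10 in the labels). Cxcl9 lies at chr5:92321331-92328079 and Cxcl10 at chr5:92346638-92348889, both on the minus strand, with 18558 bases between them. The 250 bases before each start site are shown because these chemokines differ there in matches to the motifs of factors activated by interferons and NF-kB (RefSeq, GRCm38.p6, minus strand, 5' to 3'). Capitals mark matches on either strand to the interferon-stimulated response element (ISRE, searched as GAAA, any 2 bases and GAAA again) and to the consensus of NF-kB.
Cxcl9 upstream, chr5:92328080-92328329: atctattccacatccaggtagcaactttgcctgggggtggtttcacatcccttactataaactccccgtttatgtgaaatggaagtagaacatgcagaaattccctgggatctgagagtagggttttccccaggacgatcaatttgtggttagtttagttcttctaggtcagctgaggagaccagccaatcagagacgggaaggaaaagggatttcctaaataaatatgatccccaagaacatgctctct
Cxcl10 upstream, chr5:92348890-92349139: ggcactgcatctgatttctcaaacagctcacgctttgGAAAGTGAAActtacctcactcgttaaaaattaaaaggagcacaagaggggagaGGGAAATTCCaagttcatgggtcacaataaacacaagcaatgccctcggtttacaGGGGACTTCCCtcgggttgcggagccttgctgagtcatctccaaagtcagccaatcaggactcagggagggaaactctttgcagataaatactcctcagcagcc
The Cxcl10 window held the ISRE letters, as GAAAGTGAAA, from -213 to -204 and NF-kB matches from -159 to -150 and from -104 to -94, where 2 matches overlap. The Cxcl9 window held no match to either motif or to the interferon gamma activated site (GAS, searched as TTCNNNGAA). Over all 32851 promoter windows, 2.98% held the ISRE letters, 7.25% the NF-kB consensus and 7.02% the GAS letters. Windows were given for 8 of the 9 genes, and the Ccl20 window held 1 NF-kB match from -80 to -71, while those of Cxcl13, Ccl25, Ccl28, Ccl6 and Cx3cl1 held no match to these motifs. A match of letters is a description and not a shown binding site.

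Cxcl9 was low in every Sa library and higher in nearly every FMT library, at levels where the 2 decimals of the table are coarse. In set 1 it stood at 0.31 and 0.16 FPKM in Sa, at 0.70, 0.55 and 0.65 in Con-FMT, at 0.48, 0.87 and 0.51 in A10-FMT and at 0.62, 0.29 and 0.50 in A100-FMT. In set 2 it stood at 0.19, 0.24 and 0.19 FPKM in Sa, at 0.42, 0.57 and 0.54 in Con-FMT, at 0.50, 0.57 and 0.53 in A10-FMT and at 0.69, 0.42 and 0.61 in A100-FMT. All 9 FMT libraries of set 2 lay above all Sa libraries of that set, which was so for 1.19% of the 19187 entries with a value above 0. Single FMT groups often lay above or below every Sa library of a set. After Con-FMT, A10-FMT and A100-FMT it was so for 24.2%, 27.6% and 29.9% of these entries in set 1 and for 13.2%, 21.0% and 19.6% in set 2. In set 1 only A100-FMT replicate 2 overlapped with Sa for Cxcl9. Cxcl9 was separated from Sa in both sets after Con-FMT and after A10-FMT. With the description's column, which gives Cxcl9 0.49 FPKM, A10-FMT overlapped with Sa in set 1 and Con-FMT did not. Ratios of group means against Sa were 2.7, 2.64 and 2.0 in set 1 for Con-FMT, A10-FMT and A100-FMT, and 2.47, 2.58 and 2.77 in set 2.

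Since Cxcl9 was under the filter, it was tested only in the fit of all 19187 entries. There it rose after Con-FMT over both sets by 0.36 (SE 0.07, adjusted p = 0.0245 from limma, background 0.365% of entries called) and in set 1 by 0.40 (SE 0.10, adjusted p = 0.045, background 7.5%). It rose after A10-FMT in set 1 by 0.39 (SE 0.10, adjusted p = 0.0167, background 16.5%) but was not called over both sets (0.37, SE 0.07, adjusted p = 0.0778, background 0.0261%). After A100-FMT it was not called in set 1 (0.25, SE 0.10, adjusted p = 0.0963, background 17.5%) or over both sets (0.31, SE 0.07, adjusted p = 0.0627, background 0.13%). In set 2 the changes were 0.32, 0.35 and 0.38 (SE 0.09 each, adjusted p = 0.311, 0.148 and 0.143), where this fit called 0.0%, 0.0104% and 0.073% of entries. All 3 Cxcl9 calls of this fit were lost with the description's column. Both alternatives for the Sa library were added to this fit after the values were seen. Leaving out Sa replicate 3, Cxcl9 changed after Con-FMT by 0.32 over both sets and by 0.32 in set 1, and after A10-FMT by 0.30 in set 1. Taking the description's column, where Sa is higher, these changes were smaller, at 0.27 (adjusted p = 0.0973, background 0.486%), 0.22 (adjusted p = 0.5, background 0.193%) and 0.20 (adjusted p = 0.189, background 18.5%). The comparisons with Sa share the same Sa libraries, so their likeness is not independent. The difference of the Cxcl9 change between the sets was -0.08 for Con-FMT, -0.04 for A10-FMT and 0.13 for A100-FMT (SE 0.14 each, adjusted p = 0.777, 0.906 and 0.581 from limma).

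Cxcl10 was low in both Sa groups and was highest on average in Con-FMT of set 1. In set 1 it stood at 0.74 and 0.72 FPKM in Sa, at 3.05, 0.98 and 3.03 in Con-FMT, at 1.31, 1.67 and 2.18 in A10-FMT and at 1.45, 2.49 and 1.94 in A100-FMT. All 9 FMT libraries of set 1 lay above both Sa libraries, which was so for 3.4% of entries, and the description's column gave Cxcl10 0.70 FPKM. In set 2 it stood at 0.78, 0.90 and 0.97 FPKM in Sa, at 1.34, 2.38 and 2.03 in Con-FMT, at 1.46, 0.99 and 0.90 in A10-FMT and at 0.71, 1.49 and 1.38 in A100-FMT. There, Con-FMT lay above every Sa library, while A10-FMT and A100-FMT overlapped with Sa. In set 2, 13.2% of entries lay above or below every Sa library after Con-FMT. Con-FMT thus gave 2 of 9 chemokines, Cxcl9 and Cxcl10, without overlap above Sa in both sets, against 1.02% of entries. A10-FMT gave 1, Cxcl9, against 0.526%, and A100-FMT gave 0 against 1.3%. Since the chemokines were chosen with earlier results of these data known, these shares are background and no test of an excess.

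**Figure D1:**
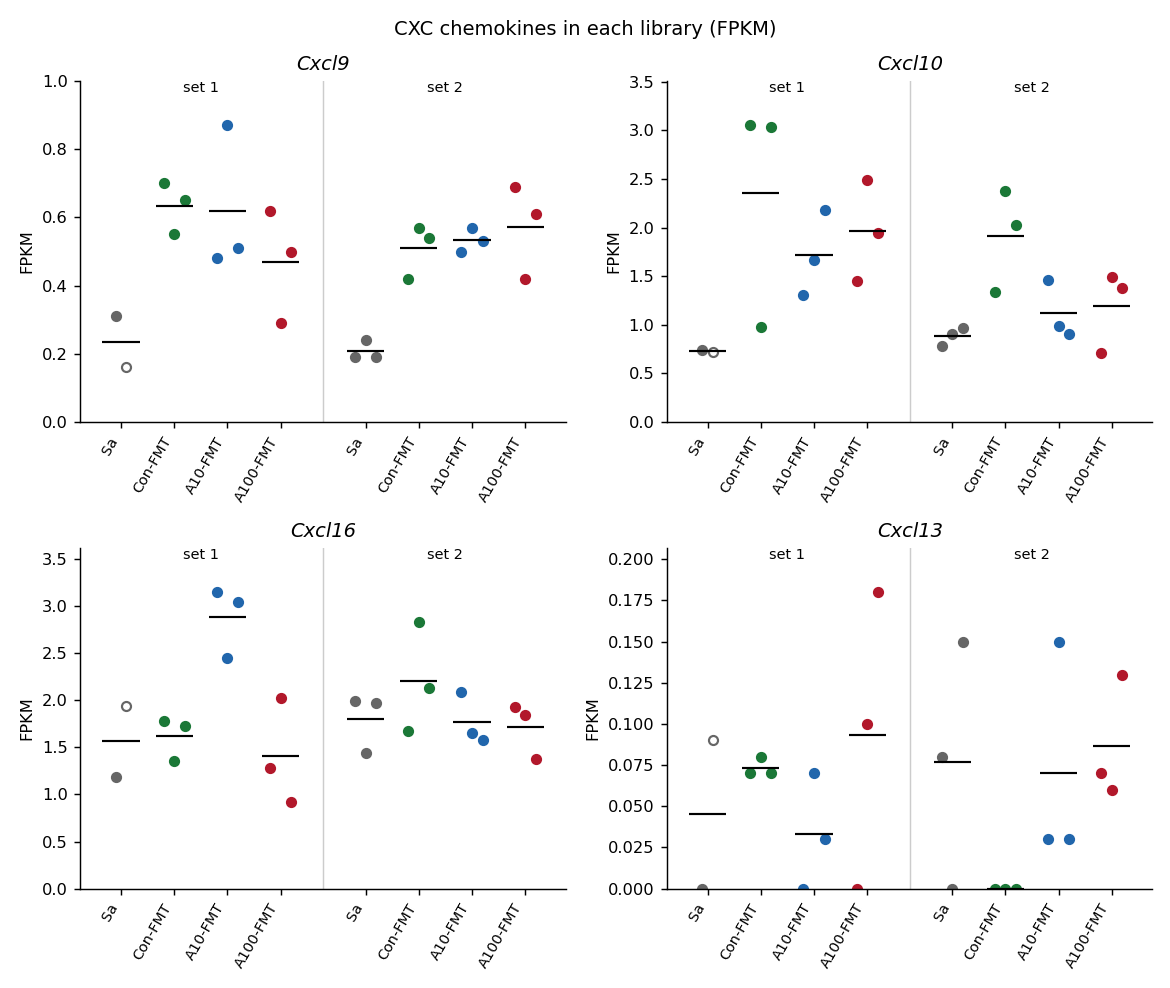
FPKM of Cxcl9, Cxcl10, Cxcl16 and Cxcl13 in each of the 23 libraries (points) with the group mean (bars), by treatment in set 1 and set 2; the open point is Sa replicate 3 of set 1. Cxcl9 of all 9 FMT libraries in set 2 and Cxcl10 of all 9 in set 1 sit above the Sa points of the set, and Cxcl16 of A10-FMT in set 1 sits between 2.45 and 3.15 FPKM.

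Con-FMT vs. Sa in set 1 called 1 of the 6 tested chemokines, Cxcl10, which rose by 0.88 (SE 0.26, adjusted p = 0.0281 from limma), where 26.9% of all tested entries were called. Without Sa replicate 3, with 1 Sa library left, its change was 0.87, and with the description's column it was 0.89 (adjusted p = 0.161 from limma). The background with that column was 0.397%, so the size was kept and the call was not. Cxcl10 had means of 0.73 and 0.883 FPKM in the Sa groups and passed the filter only through the FMT groups, and in the fit of all entries it was not called in set 1 after Con-FMT (adjusted p = 0.0505) or A100-FMT (adjusted p = 0.0549). A100-FMT vs. Sa in set 1 also called Cxcl10 alone, with a rise of 0.76 (SE 0.26, adjusted p = 0.0329, background 35.2%). That change was 0.75 without Sa replicate 3 and 0.77 with the description's column (adjusted p = 0.0702 from limma, background 8.51%). After A10-FMT in set 1 Cxcl10 changed by 0.64 and was not called (SE 0.26, adjusted p = 0.0656). In set 2 its changes were 0.62, 0.16 and 0.20 after Con-FMT, A10-FMT and A100-FMT (SE 0.23 each), and none was called. Over both sets Con-FMT gave 0.75 (SE 0.17), which was not called (adjusted p = 0.0521 from limma). The adjusted p was 0.0441 with the description's column and 0.08 in the fit of all entries. Without Sa replicate 3 the change was 0.74.

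Cxcl16 (chr11:70454389-70459984), which binds Cxcr6, was highest in A10-FMT of set 1. In set 1 it stood at 1.19 and 1.94 FPKM in Sa, at 1.78, 1.36 and 1.73 in Con-FMT, at 3.15, 2.45 and 3.05 in A10-FMT and at 1.28, 2.02 and 0.92 in A100-FMT. All 3 A10-FMT libraries lay above every other library of the set, which was so for 2.66% of entries, and Sa, Con-FMT and A100-FMT overlapped. The set 2 values were 1.99, 1.44 and 1.97 FPKM in Sa, at 1.67, 2.83 and 2.13 in Con-FMT, at 2.09, 1.65 and 1.58 in A10-FMT and at 1.93, 1.84 and 1.38 in A100-FMT, and all groups overlapped with Sa.

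Cx3cl1 (chr8:94772180-94782427), the transmembrane ligand of Cx3cr1, was also highest in A10-FMT of set 1 but lowest after A100-FMT in set 2. In set 1 it stood at 30.52 and 36.00 FPKM in Sa, at 33.35, 34.31 and 32.95 in Con-FMT, at 41.05, 37.46 and 42.79 in A10-FMT and at 38.20, 37.28 and 32.36 in A100-FMT. Set 2 gave 34.76, 38.44 and 37.95 FPKM in Sa, at 31.84, 36.86 and 36.14 in Con-FMT, at 34.54, 29.27 and 31.54 in A10-FMT and at 28.34, 32.99 and 27.51 in A100-FMT. A10-FMT lay above both Sa libraries in set 1 and below all of them in set 2, and A100-FMT lay below all Sa libraries in set 2. These groups lay above or below every Sa library for 27.6%, 21.0% and 19.6% of entries, and the share changing sides between the sets was not counted.

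Ccl6 (chr11:83587886-83593087) ranked behind Ccl25 in abundance and was higher in set 1 than in set 2. In set 1 it stood at 144.64 and 156.91 FPKM in Sa, at 135.07, 161.15 and 159.42 in Con-FMT, at 120.07, 134.24 and 116.85 in A10-FMT and at 132.00, 130.81 and 129.76 in A100-FMT. In set 2 it stood at 98.42, 109.35 and 103.49 FPKM in Sa, at 121.98, 124.80 and 123.45 in Con-FMT, at 121.63, 118.26 and 112.74 in A10-FMT and at 113.55, 114.83 and 91.45 in A100-FMT. A10-FMT and A100-FMT lay below both Sa libraries in set 1, whereas in set 2 Con-FMT and A10-FMT lay above every Sa library. The shares of entries above or below every Sa library were 27.6% and 29.9% in set 1 and 13.2% and 21.0% in set 2.

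A10-FMT vs. Sa in set 1 called 3 of the 6 tested chemokines, against 32.0% of all tested entries. None was called with the 2 groups fitted alone, with array quality weights, or without replicate 1 or replicate 3 of A10-FMT. Cxcl16 rose by 0.61 (SE 0.18, adjusted p = 0.0202 from limma) and Cx3cl1 by 0.28 (SE 0.10, adjusted p = 0.0394), and Ccl6 fell by 0.28 (SE 0.09, adjusted p = 0.0261). Without Sa replicate 3, with 1 Sa library left, the changes were 0.82 for Cxcl16, 0.39 for Cx3cl1 and -0.23 for Ccl6. With the description's column, 3 were called against 33.8%. They were Cxcl16 at 0.93 (adjusted p = 0.00103), Cx3cl1 at 0.45 (adjusted p = 0.00151) and Ccl28 at -0.57 (adjusted p = 0.00508), while Ccl6 at -0.11 was not (adjusted p = 0.398). None of the 6 was called in set 2 against Sa, where 0.0353% of entries were called for Con-FMT, 0.423% for A10-FMT and 0.0353% for A100-FMT. At an unadjusted p under 0.05 from limma, 2, 3 and 1 of the 6 passed in these comparisons, as did 651, 1627 and 1606 of the 11337 entries. Over both sets none of the 6 was called either, with 0.75%, 0.132% and 0.891% of entries called and 1, 2 and 1 chemokines at an unadjusted p under 0.05, as were 2659, 2260 and 2987 of the 11337 entries. The median change of the 6 chemokines in set 1 was 0.05, 0.24 and 0.14 for Con-FMT, A10-FMT and A100-FMT, beside 0.06, -0.01 and 0.05 over all tested entries.

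**Figure D2:**
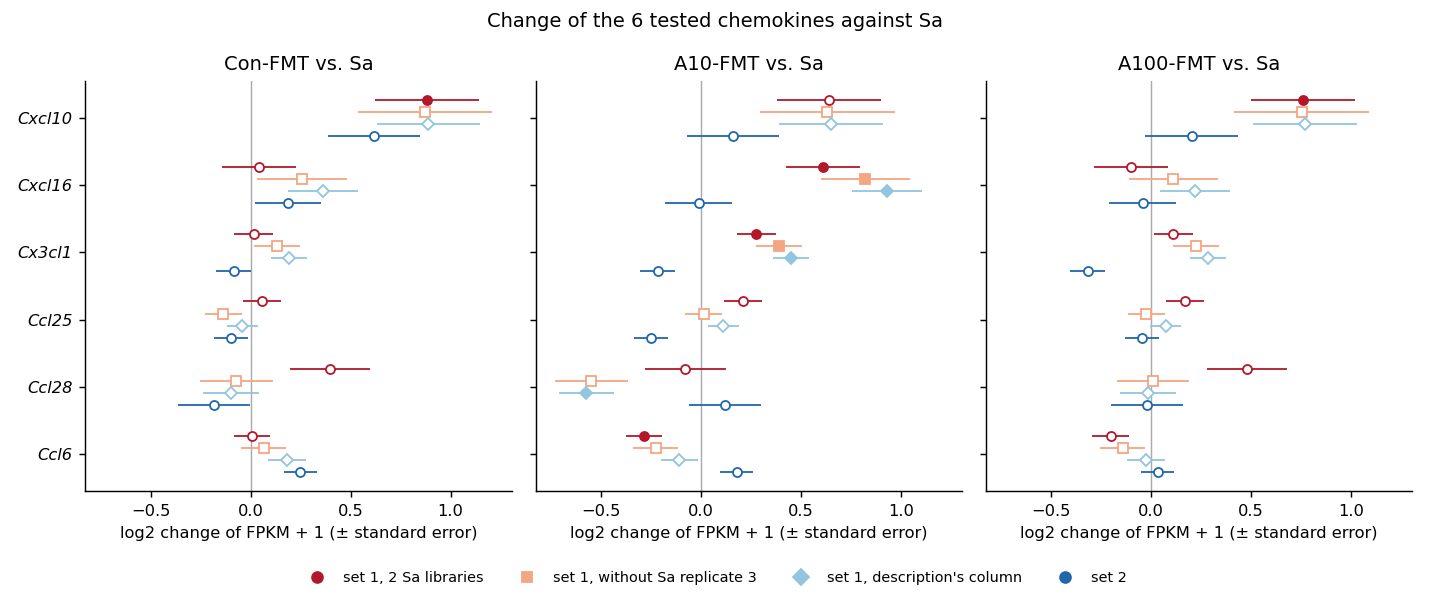
Change of log2(FPKM + 1) against Sa (points, with SE) for the 6 tested chemokines after Con-FMT, A10-FMT and A100-FMT, for set 1 with both Sa libraries, without Sa replicate 3 or with the description's column, and for set 2; filled points were called by limma. Cxcl10 keeps its place near 0.88 after Con-FMT in set 1 under all of these Sa values, and Ccl28 after A10-FMT moves from -0.08 to -0.57.

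Distal small intestine markers are given beside these changes, since those of A10-FMT in set 1 moved too. Their summed level was 3040 to 3400 FPKM in A10-FMT and 2720 to 3070 in A100-FMT of set 1 against 2160 to 2340 in Sa, and 2080 to 2480 FPKM in A10-FMT of set 2 against 2520 to 3210 in Sa. In A10-FMT vs. Sa of set 1, 4 of the 7 tested markers rose, among them the bile acid transporter gene Slc10a2 by 1.46 (SE 0.37, adjusted p = 0.00826 from limma), and 0 fell, where 32.0% of all tested entries were called. After A100-FMT 3 of 7 rose (background 35.2%), with Slc10a2 at 1.08 (SE 0.37, adjusted p = 0.0348). In A10-FMT vs. Sa of set 2, Cyp4f14 fell by 0.54 (SE 0.12, adjusted p = 0.0485) and 0 rose. Muc13, a mucin, was the most abundant at a mean of 1300 FPKM, and Fgf15 was under the filter. Without Sa replicate 3 the calls in set 1 were Cyp4f14 after A10-FMT (background 8.13%) and none after A100-FMT (background 0.238%). With the description's column all 7 rose after A10-FMT (background 33.8%) and 1 after A100-FMT (background 8.51%). Against Con-FMT in set 1, 4 of 7 rose after A10-FMT (background 16.7%). Of the 5 tested markers of the proximal small intestine, Gata4 and Slc40a1 changed in A10-FMT vs. Sa of set 1, 1 in each direction. Of the 10 epithelial markers, Krt20 and Vil1 rose there by 0.84 and 0.38 (adjusted p = 0.000525 and 0.0013 from limma), and Cdx1 and Krt19 fell by 0.56 and 0.40 (adjusted p = 0.00816 and 0.0189). Without Sa replicate 3, 1 Sa library was left in set 1, so calls of Krt20 and Vil1 there rest on the spread of the other groups. After Con-FMT in set 1, where Cxcl10 was called, Krt20 rose and Krt8, Krt19, Lgals4 and Cdx1 fell (adjusted p = 0.0266 to 0.0386, background 26.9%), and 0 of the 10 were called without that library. After A100-FMT, Krt20 and Epcam rose and Krt19 and Krt8 fell (adjusted p = 0.00552 to 0.0469, background 35.2%), again with 0 called without it. Against Con-FMT in set 1, A10-FMT was higher in Vil1 and Krt20 and lower in Cdh1 (adjusted p = 0.00269, 0.00695 and 0.00206). The part of the sampled region or of the epithelium in the Cxcl10, Cxcl16, Cx3cl1 and Ccl6 changes was not tested.

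Compared with Con-FMT, the transplant from vehicle-dosed donors, A10-FMT called the same 3 chemokines in set 1, against 16.7% of entries. Cxcl16 rose by 0.56 (SE 0.17, adjusted p = 0.027 from limma) and Cx3cl1 by 0.26 (SE 0.09, adjusted p = 0.0494), and Ccl6 fell by 0.29 (SE 0.08, adjusted p = 0.0215). All 3 libraries lay outside the range of Con-FMT for each, as they did for 28.1% of the 19187 entries. In the fit of all entries Cx3cl1 was not called (adjusted p = 0.0733 from limma), and over all alternatives its call was lost in 18 of 33. None of the 3 was called without replicate 1 or without replicate 3 of A10-FMT. The comparison's group means hold no Sa library, although the Sa libraries enter the spread estimated over all groups, and it shares A10-FMT with the comparison above. A10-FMT vs. Con-FMT called no chemokine in set 2 (background 0.379%) or over both sets (background 0.0%). A100-FMT vs. Con-FMT called none in set 1 (background 0.406%), set 2 (background 0.0%) or over both sets (background 0.123%). At an unadjusted p under 0.05 from limma, A10-FMT had 0 of 6 in set 2 (1348 of the 11337 entries) and 2 over both sets (697 entries). A100-FMT had 1, 2 and 1, beside 1282, 1270 and 1097 entries. Ccl6 came closest over both sets, at -0.18 for A10-FMT and -0.21 for A100-FMT (SE 0.06 each, adjusted p = 0.683 and 0.176).

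Ccl28 (chr13:119623819-119654359) and Ccl25 (chr8:4325205-4360020), chemokines of the intestinal epithelium, were not called against Sa within a set with the title's column. Ccl28 stood in set 1 at 23.50 and 11.78 FPKM in Sa, at 20.88, 23.33 and 22.83 in Con-FMT, at 16.99, 15.87 and 14.52 in A10-FMT and at 20.92, 20.85 and 30.32 in A100-FMT. The set 2 values were 27.17, 24.96 and 24.16 FPKM in Sa, at 21.32, 18.86 and 27.39 in Con-FMT, at 28.02, 27.45 and 27.64 in A10-FMT and at 26.25, 26.32 and 22.74 in A100-FMT. The lowest Ccl28 value of all was that of Sa replicate 3, and A10-FMT lay below Con-FMT in set 1 and above Sa in set 2. A10-FMT lay outside Con-FMT in set 1 for 28.1% of entries and outside Sa in set 2 for 21.0%. The Ccl28 change after A10-FMT in set 1 was -0.08 with the title's column (adjusted p = 0.785 from limma), -0.55 without Sa replicate 3 and -0.57 with the description's column (adjusted p = 0.00508). Against Con-FMT in set 1 it was -0.48 (SE 0.18, adjusted p = 0.0767). Among genes of IgA plasma cells and IgA transport, Xbp1 was called after Con-FMT in set 1 (-0.19, adjusted p = 0.0385 from limma, background 26.9%). After A10-FMT Prdm1 at 0.75 and Sdc1 at -0.31 were called (adjusted p = 0.00051 and 0.0425, background 32.0%). After A100-FMT these were Prdm1 at 0.55, Pigr at 0.24 and Sdc1 at -0.35 (adjusted p = 0.00421, 0.0451 and 0.0258, background 35.2%). In set 2 none was called. Their part in the Ccl28 values was not tested.

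Ccl25, the ligand of Ccr9 and the most abundant of the chemokines, stood in set 1 at 421.36 and 321.33 FPKM in Sa, at 373.82, 366.77 and 409.71 in Con-FMT, at 413.18, 435.36 and 428.60 in A10-FMT and at 405.31, 417.61 and 420.80 in A100-FMT. Set 2 gave 401.22, 455.85 and 428.26 FPKM in Sa, at 355.97, 432.25 and 416.64 in Con-FMT, at 360.44, 356.05 and 360.65 in A10-FMT and at 413.10, 394.44 and 437.17 in A100-FMT. Group means ranged only from 359 to 428 FPKM, and A10-FMT of set 2 lay below every Sa library of that set without a call (-0.25, SE 0.08, adjusted p = 0.186 from limma). In that comparison 21.0% of entries lay above or below every Sa library. The lowest single Ccl25 value was again that of Sa replicate 3.

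**Figure D3:**
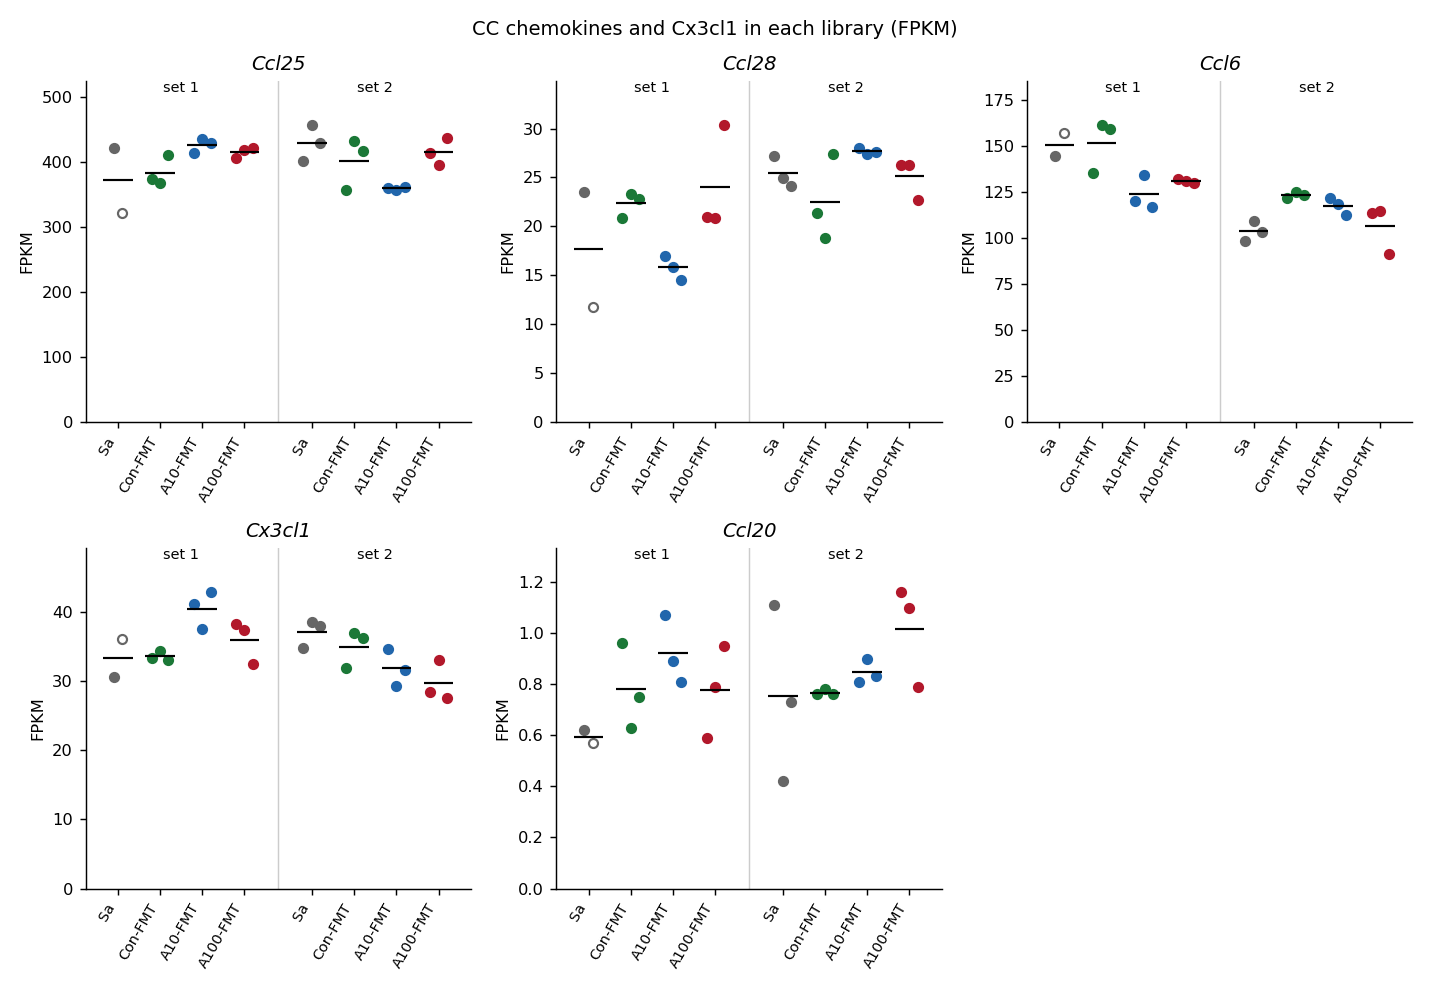
FPKM of Ccl25, Ccl28, Ccl6, Cx3cl1 and Ccl20 in each of the 23 libraries (points) with the group mean (bars), by treatment in set 1 and set 2; the open point is Sa replicate 3 of set 1. That point is the lowest of all for Ccl25 (321.33 FPKM) and Ccl28 (11.78 FPKM), and Ccl6 is lower in set 2 Sa than in set 1 Sa.

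Ccl20 (chr1:83116766-83119167), which is known from the epithelium over lymphoid follicles, stood in set 1 at 0.62 and 0.57 FPKM in Sa, at 0.96, 0.63 and 0.75 in Con-FMT, at 1.07, 0.89 and 0.81 in A10-FMT and at 0.59, 0.79 and 0.95 in A100-FMT. The set 2 values were 1.11, 0.42 and 0.73 FPKM in Sa, at 0.76, 0.78 and 0.76 in Con-FMT, at 0.81, 0.90 and 0.83 in A10-FMT and at 1.16, 1.10 and 0.79 in A100-FMT. The Sa libraries of set 2 spanned nearly the whole range, and in the fit of all entries its changes over both sets were 0.09, 0.18 and 0.18 after Con-FMT, A10-FMT and A100-FMT (SE 0.09 each, adjusted p = 0.587, 0.342 and 0.249 from limma). Cxcl13 (chr5:95956939-95961068), the B cell attractant of follicles, was at most 0.18 FPKM and was listed at 0 in 1 of 2 Sa libraries of set 1, 1 of 3 of Sa in set 2, 1 of 3 of A10-FMT and of A100-FMT in set 1, and in all 3 Con-FMT libraries of set 2. No direction was read from it. Among genes of M cells and follicle-associated epithelium, Pglyrp1 changed in set 1 by -0.44, -0.29 and -0.35 after Con-FMT, A10-FMT and A100-FMT (SE 0.10 each). It was called each time (adjusted p = 0.0257, 0.0365 and 0.0184 from limma, background 26.9%, 32.0% and 35.2%). Ccl9, also of that list, is given below. In set 2 none of these genes was called. Their part in the Ccl20 values was not tested.

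The sets themselves differed in 2 of the 6 tested chemokines, against 13.3% of entries. Averaged over the treatments, Ccl6 was lower in set 2 by -0.30 (SE 0.04, adjusted p = 0.00337 from limma) and Ccl28 higher by 0.36 (SE 0.09, adjusted p = 0.0271). Neither was called with a replicate block or with array quality weights. The treatment changes also differed between the sets. For A10-FMT vs. Sa, set 2 minus set 1, 3 of 6 chemokines were called against 28.4%. These were Ccl25 at -0.46 (SE 0.13, adjusted p = 0.0128 from limma), Ccl6 at 0.46 (SE 0.12, adjusted p = 0.0101) and Cx3cl1 at -0.49 (SE 0.13, adjusted p = 0.0104). In that comparison all 7 tested distal markers were lower, among them Slc10a2 by -2.63 (adjusted p = 0.00144 from limma). Of the 10 epithelial markers Krt20 and Vil1 were lower by -1.19 and -0.60, and Cdx1 higher by 0.58 (adjusted p = 0.00024, 0.000433 and 0.0312). Without Sa replicate 3, 20.4% of entries were called. The differences were then -0.27 for Ccl25, 0.405 for Ccl6, -0.61 for Cx3cl1, 0.67 for Ccl28 and -0.83 for Cxcl16. With 1 Sa library left in set 1, the spread came from the other groups. With the description's column 36.2% were called, including Ccl25, Cx3cl1, Ccl28 and Cxcl16 and not Ccl6 (0.29, adjusted p = 0.0855). For A100-FMT vs. Sa, Cx3cl1 was the only one of the 6 called, at -0.43 (SE 0.13, adjusted p = 0.0276 from limma, background 26.8%). Of the distal markers Muc13, Cubn and Slc10a2 were lower there, by -0.62, -1.13 and -1.47 (adjusted p = 0.0102, 0.0125 and 0.0394). Of the epithelial markers Krt20, Vil1, Epcam and Cdh1 were lower and Krt19 higher (adjusted p = 0.00629 to 0.04). Cx3cl1 was also called with the description's column (-0.60, adjusted p = 0.00432, background 18.6%). Without Sa replicate 3 its difference was -0.54 (background 4.1%). That fit leaves 1 Sa library in set 1 and takes the spread from the other groups, so neither a kept nor a lost call was read from it. Con-FMT vs. Sa gave 0 of 6 (background 0.00882%, 1 of 6 and 3893 of 11337 entries at an unadjusted p under 0.05 from limma). For A10-FMT vs. Con-FMT, whose group means hold no Sa library, Ccl28 was called at 0.78 (SE 0.25, adjusted p = 0.0372), Cx3cl1 at -0.39 (SE 0.12, adjusted p = 0.0317) and Cxcl16 at -0.76 (SE 0.23, adjusted p = 0.0283), against 20.8%. With the description's column these were also called, and so was Ccl25 at -0.31 (adjusted p = 0.0197 from limma), which was not called with the title's column. Other Sa values leave the group means of this comparison as they were. Over all alternatives, including each library left out, the call was lost in 13 of 33 for Ccl28, 9 of 33 for Cx3cl1 and 7 of 32 for Cxcl16. Each of these 3 calls was lost with the replicate block. In the fit of all entries Ccl28 was not called (0.78, adjusted p = 0.0648). Marker genes moved in the same comparison. Of the 7 tested T cell genes 3 were lower, Gzmb by -2.06, Gzma by -2.03 and Nkg7 by -1.45 (adjusted p = 0.0158, 0.0275 and 0.0442 from limma). Hba-a1, a hemoglobin gene, was lower by -3.00 (adjusted p = 0.0425 from limma). The erythroid genes summed to 4.53 to 40.4 FPKM in Con-FMT and 1.09 to 3.68 in A10-FMT of set 2. In set 1 they summed to 0.77 to 2.2 FPKM in Con-FMT and 1.83 to 12.6 in A10-FMT. Of the 7 distal markers 5 were lower, among them Slc10a2 by -1.76 (adjusted p = 0.0144), and of the 10 epithelial markers Krt20 and Vil1 were lower and Cdh1 higher. The part of these marker genes in the chemokine differences between the sets was not tested.

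Genes of interferon gamma signaling, which induces Cxcl9 and Cxcl10, were followed in a list of 18, of which 16 were tested. In set 1, 8 of 16 rose and 0 fell after each FMT, with a median change of 0.36, 0.40 and 0.33 for Con-FMT, A10-FMT and A100-FMT, where 26.9%, 32.0% and 35.2% of all tested entries were called. Stat2, a transcription factor of interferon signaling, rose by 0.73, 0.59 and 0.79 (SE 0.12 each, adjusted p = 0.0212, 0.00257 and 0.00205 from limma), and Gbp7, an interferon-induced GTPase, by 1.11, 1.11 and 1.19 (SE 0.23 each, adjusted p = 0.0257, 0.00241 and 0.0044). Without Sa replicate 3 the counts were 0, 3 and 1 (background 0.00882%, 8.13% and 0.238%), and with the description's column 3, 10 and 5 (background 0.397%, 33.8% and 8.51%), with 0 falling in each. In set 2, 0 of 16 were called by limma, and 7, 3 and 4 had an unadjusted p under 0.05, as did 651, 1627 and 1606 of the 11337 entries. Among these, the change of Ifngr1, a receptor subunit of interferon gamma, was negative after each FMT (-0.15, -0.17 and -0.18), and that of Ciita was -0.41 after A100-FMT. Gbp2, another of these GTPases, stood closest there after Con-FMT (0.73, SE 0.14, adjusted p = 0.0825). Over both sets 6 rose after Con-FMT, 1 after A10-FMT and 3 after A100-FMT, against 0.75%, 0.132% and 0.891% of entries. These counts were 3, 0 and 0 without Sa replicate 3 (background 0.353%, 0.0% and 0.0%) and 5, 5 and 3 with the description's column (background 1.09%, 1.38% and 0.591%). Gbp7 rose by 0.77 after Con-FMT over both sets (SE 0.15, adjusted p = 0.0196 from limma). Ifng itself, the cytokine, was under 0.5 FPKM in every library.

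**Figure D4:**
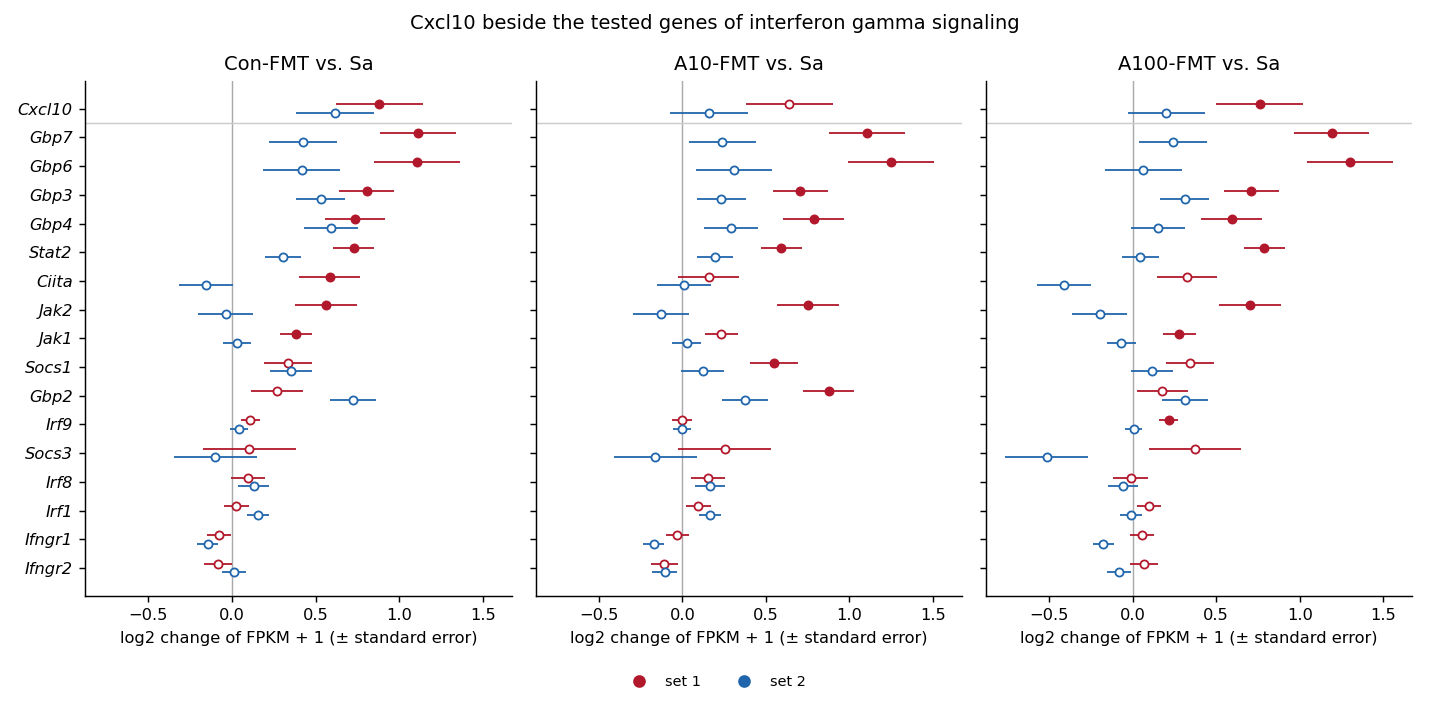
Change of log2(FPKM + 1) against Sa (points, with SE) of Cxcl10 and of the 16 tested genes of interferon gamma signaling, in set 1 and set 2; filled points were called by limma. In set 1, 8 of 16 genes rose in each panel, and in set 2 none was called.

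The receptors of the 9 chemokines were all in the table and all under the filter. Cxcr6 had the highest mean at 0.451 FPKM, followed by Ccr9 at 0.296 and Cxcr3 at 0.158, and 7 of the 9 were under 0.5 FPKM in every library. Cxcr3, the receptor of Cxcl9 and Cxcl10, stood at 0.14 and 0.22 FPKM in Sa and 0.17, 0.06 and 0.30 in Con-FMT of set 1, and at 0.03, 0.09 and 0.11 FPKM in Sa and 0.02, 0.37 and 0.43 in Con-FMT of set 2, with overlap in both. The receptors summed to 0.75 to 0.78 FPKM in Sa and 0.6 to 1.53 in Con-FMT of set 1, and to 0.69 to 0.97 and 0.85 to 2.49 FPKM in set 2. The highest Con-FMT sums were thus in set 2, and Con-FMT overlapped with Sa in both sets. In A10-FMT of set 1 they summed to 0.98 to 1.55 FPKM, above both Sa libraries, where 27.6% of single entries lay above or below Sa. The other A10-FMT and A100-FMT groups overlapped with Sa. Of the 7 tested T cell genes 0 were called against Sa by limma, and 5 had an unadjusted p under 0.05 after Con-FMT in set 2, as did 651 of the 11337 entries. Cd2 and Cd4 of that list were under 0.5 FPKM in every library. The most abundant was Gzma, a granzyme, and the summed level of the list was 80.7 to 94.0 FPKM in Sa and 62.1 to 144 in Con-FMT of set 1, and 61.2 to 110 and 79.8 to 239 FPKM in set 2. A10-FMT of set 2 summed to 44.1 to 55.3 FPKM, below every Sa library, where 21.0% of single entries lay above or below Sa. For this list the other A10-FMT and A100-FMT groups overlapped with Sa. The part of T cell number in the Cxcl9 and Cxcl10 values was not tested. Of the genes that cut chemokines, Dpp4, which trims Cxcl10, and Adam10 and Adam17, which shed Cx3cl1 and Cxcl16, rose in set 1 after Con-FMT (background 26.9%) and after A100-FMT (background 35.2%), and Dpp4 and Adam10 after A10-FMT (background 32.0%). Adam10 rose by 0.59, 0.47 and 0.62 after Con-FMT, A10-FMT and A100-FMT (SE 0.17 each, adjusted p = 0.0266, 0.0401 and 0.0135 from limma), and the adjusted p of Dpp4 was 0.0266, 0.00109 and 0.00761. Adam10 was 37.27 and 18.20 FPKM in Sa replicates 1 and 3 of set 1, 39.31, 38.96 and 41.10 in Con-FMT, and 45.84, 45.20 and 43.35 in Sa of set 2. Without Sa replicate 3 only Dpp4 after A10-FMT was called among them (background 0.00882%, 8.13% and 0.238%), and with the description's column Dpp4 after A10-FMT and after A100-FMT. In set 2 none of them was called, and Dpp4 changed by -0.15, -0.68 and -0.46 after Con-FMT, A10-FMT and A100-FMT (SE 0.18 each). Set 2 minus set 1, Dpp4 differed by -1.835 for A10-FMT and -1.369 for A100-FMT (adjusted p = 0.000368 and 0.00738 from limma, background 28.4% and 26.8%). Adam10 and Adam17 differed for A100-FMT by -0.82 and -0.54 (adjusted p = 0.0176 and 0.0336 from limma). Sa replicate 3 enters these differences. Mmp7, the most abundant of the list at 139 FPKM, was not called against Sa.

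Of 32 further chemokine genes, 26 were in the table and 4 passed the filter, Ccl5, Ccl9, Ccl8 and Ccl24. Ccl5, a T cell product, had the highest mean at 24.3 FPKM. Of these 4, Ccl9 alone was called against Sa, in A100-FMT of set 1, where 35.2% of all tested entries were called (-0.48, SE 0.13, adjusted p = 0.0157 from limma). That call was absent without Sa replicate 3 and with the description's column. Ccrl2, a receptor that binds the attractant chemerin without signalling, was the only tested gene among 13 other chemokine receptors and rose after Con-FMT over both sets by 0.42 (SE 0.10, adjusted p = 0.0467, background 0.75%) and after A10-FMT in set 1 by 0.42 (SE 0.14, adjusted p = 0.0334, background 32.0%). Neither was called without Sa replicate 3 (adjusted p = 0.184 and 0.171), and with the description's column both were (adjusted p = 0.0235 and 0.0155). Of 14 tested genes of NF-kB and lymphotoxin signaling, which induces Ccl20 and Cxcl13, 2, 4 and 2 were called in set 1 after Con-FMT, A10-FMT and A100-FMT, against 26.9%, 32.0% and 35.2% of all tested entries. Tnfaip3, an inhibitor of NF-kB, rose there by 0.45, 0.33 and 0.45 (SE 0.10 each, adjusted p = 0.0257, 0.0228 and 0.00808). Rela, a subunit of NF-kB, fell by 0.22, 0.24 and 0.24 (SE 0.08 each, adjusted p = 0.0425, 0.0251 and 0.0253), and Tnfrsf1b and Tnf fell after A10-FMT by 0.31 and 0.59 (adjusted p = 0.0244 and 0.0297). With the description's column, Tnfaip3 after A100-FMT and Tnf after A10-FMT were called among these, and without Sa replicate 3 none of them was. In set 2 none of the 14 was called. Set 2 minus set 1, Tnfaip3 differed by -0.465 for A10-FMT and -0.641 for A100-FMT (adjusted p = 0.0183 and 0.00869 from limma, background 28.4% and 26.8%). Rela differed by 0.407 and 0.327 (adjusted p = 0.00679 and 0.0276 from limma). Macrophage and neutrophil genes had 2 and 1 members above the filter, and limma called 0 of them against Sa, with 0 at an unadjusted p under 0.05. Eosinophil and endothelial genes had none above it and were not tested. The 5 eosinophil genes summed to 0.88 to 1.68 FPKM in Con-FMT of set 1 against 0.13 and 0.17 in Sa, without overlap, and to 0.31 to 2.05 against 0.23 to 0.33 FPKM in set 2, with overlap. A10-FMT (0.23 to 0.36) and A100-FMT (0.28 to 0.48) of set 1 also lay above Sa. In set 2 A100-FMT (0.39 to 0.99) lay above Sa and A10-FMT (0.25 to 0.37) overlapped. Single entries lay above or below Sa for 24.2%, 27.6% and 29.9% in set 1, and for 19.6% after A100-FMT in set 2. Most of the Con-FMT sum of set 1 was Ear2, a ribonuclease gene, at 0.79, 1.18 and 0.60 FPKM in Con-FMT and listed at 0 in both Sa libraries. The part of eosinophils in the Cxcl9 and Cxcl10 values was not tested.

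Across the 22 libraries without Sa replicate 3, the chemokines followed each other loosely, and the libraries share treatment and set. On log2(FPKM + 1), Pearson's r was 0.57 between Cxcl16 and Cx3cl1 and 0.38 between Cxcl9 and Cxcl10, and -0.62 between Cxcl16 and Ccl28 and -0.58 between Ccl28 and Cx3cl1. With all 23 libraries these were 0.57, 0.45, -0.53 and -0.52. The tested genes closest to each chemokine over the 22 libraries were Gm20594 (r = 0.83) and Trex1, a DNA exonuclease (0.82), for Cxcl10, Ptprr (0.78) and Acsf2 (0.77) for Cxcl16, and Slc7a15 (0.86) and Hadh (0.84) for Ccl25. They were Nusap1 and Swap70 (0.91 each) for Ccl28, St3gal1 (0.77) and Gcg, the glucagon precursor (0.76), for Ccl6, and Actn4 (0.92) and Btnl1 (0.90) for Cx3cl1. These are the highest of 11337 genes and are given as a description.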

How the data were processed

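The authors isolated total RNA with TRIzol and sequenced it on an Illumina HiSeq, and the deposited values are FPKM per the file headers (RPKM in the methods), with 2 decimals. The genome build is mm10 per the labels, and the aligner and counter are not given in the sources used here. The table has 24 columns. Of these, 23 were used for 23 libraries and the other is the column that the description of Sa replicate 3 of set 1 names. Libraries were grouped by treatment and set from the labels.

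FPKM were taken as log2(FPKM + 1), entries with a mean of at least 1 FPKM were tested (11337 of 19215), and 1 mean per group was fitted over all libraries with limma 3.58.1 (R 4.3.3; lmFit, contrasts.fit, eBayes with trend), with Benjamini-Hochberg adjustment and a threshold of 0.05. The values are no counts, so no count test was run. Plots and tables used Python 3.11.15, pandas 2.3.3, numpy 2.4.6 and matplotlib 3.10.9. The fit was tested on simulated data. Gene names and sequences come from RefSeq (GRCm38.p6), and GC content and length, known for 92.86% of the tested entries, from GENCODE M21 on GRCm38.

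Alternatives were quantile normalization, a pseudocount of 0.1, a filter at 5 FPKM or none, scaling by trimmed means, only the groups compared, a replicate block, array quality weights, the description's column, GC content and length taken out, and leaving out each library. The chemokines and lists were chosen with earlier results of these data known. Genes named are the 9 chemokines in every library and the 2 genes most correlated with each tested chemokine. From the lists, genes were named out of up to 5 called ones with the smallest adjusted p and the 3 most abundant. Not every such gene is named. A list of pancreatic enzyme genes had no call against Sa. Ccl24, Ifng, Fgf15, Cd2, Cd4 and the muscle genes given as low were also named, after their values were seen. A further gene of interferon signaling is not reported here.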

Additional observations from a re-analysis of the deposited data

Results flagged for a closer look

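Of the differences between the sets, 7 passed the test of the difference itself (limma, set 2 minus set 1, adjusted p under 0.05). For A10-FMT vs. Sa, where 28.4% of all tested entries were called, these were Ccl25 at -0.46, Ccl6 at 0.46 and Cx3cl1 at -0.49, and for A100-FMT vs. Sa, with 26.8% called, it was Cx3cl1 at -0.43. Ccl25 was not called without Sa replicate 3 (-0.27, adjusted p = 0.102) and Ccl6 not with the description's column (0.29, adjusted p = 0.0855), and array quality weights left 0 of these 4. For A10-FMT vs. Con-FMT, whose group means hold no Sa library and where 20.8% were called, these were Ccl28 at 0.78 (not called in the fit of all entries, adjusted p = 0.0648), Cx3cl1 at -0.39 and Cxcl16 at -0.76. None of them was called with the replicate block. What separates set 1 from set 2 is not given in the labels, so age, time and batch cannot be told apart. No group had more than 3 libraries, so single libraries were not tested as outliers.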

How the results depend on the processing

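In set 1 against Sa, 1 chemokine was called for Con-FMT, 3 for A10-FMT and 1 for A100-FMT. The 1 of Con-FMT became 0 with a mean of at least 5 FPKM, the groups compared alone, array quality weights, the description's column, and GC content and length taken out. With no filter the count stayed 1 but the gene was Cxcl9 (adjusted p = 0.045), and Cxcl10 was not called (adjusted p = 0.0505). The 1 of A100-FMT became 0 under the settings that removed that of Con-FMT and with no filter or quantile normalization, and 2 under the replicate block. The 3 of A10-FMT became 0 with the groups compared alone and with array quality weights. With no filter they were Cxcl9, Cxcl16 and Ccl6, and Cx3cl1 was not called (adjusted p = 0.0597). In set 2, array quality weights gave 2 for A10-FMT and 1 for A100-FMT, and the description's column and the GC adjustment each gave 1 for A100-FMT, in place of 0. Over both sets, Con-FMT went from 0 to 1 with a pseudocount of 0.1, the description's column and the GC adjustment, which called Cxcl10, and with no filter, which called Cxcl9 in its place. The count of 2 between the sets became 0 under the replicate block and array quality weights, and the count of 4 set differences against Sa became 2 with the groups compared alone and 0 with array quality weights. A mean of at least 5 FPKM removes Cxcl10 and Cxcl16 from the test; the cause of the other changes was not tested.

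Leaving out 1 library at a time gave 0 to 3 calls for Con-FMT vs. Sa, 0 to 4 for A10-FMT and 0 to 2 for A100-FMT in set 1, and 0, 0 to 1 and 0 to 1 in set 2. In set 1 it was 0 for Con-FMT without its replicate 1 or 3 or Sa replicate 3, for A10-FMT without its replicate 1 or 3, and for A100-FMT without its replicate 2 or 3 or Sa replicate 3. Over both sets it gave 0 to 2, 0 and 0 to 2 against Sa, and 0 for A10-FMT and A100-FMT against Con-FMT. It gave 1 to 3 between the sets and 3 to 7 for the set differences against Sa, with 7 in the absence of Sa replicate 1 of set 1.

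Of 1160 changes of single chemokines under the other settings, 44 lost the call, 23 gained it, 25 without a call changed sign by at least 1 SE, and 0 called values reversed. With 1 library left out, these were 74, 30, 18 and 0 of 2760. The replicate numbers did not pair the libraries. Deviations from the group means correlated with a median r of 0.002 over 33 same-numbered pairs, of which 10 were over 0.1, against -0.003 for the others. Depth is unknown, so chemokines under 1 FPKM carry an unstated counting error.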
